A study of Mus musculus with 15 samples.

Results

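Inhibitory receptors limit the response of a T cell after it has met antigen. The 9 genes described here are Pdcd1, Ctla4, Lag3, Havcr2, Tigit, Cd160, Btla, Tox and Entpd1, of 55536 annotated genes in the count tables. They were taken by symbol and mapped to Ensembl identifiers with the mouse GENCODE release M21. All 9 were found and all 9 passed the filter on low counts, which 24262 genes passed.

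The samples were CD8+ T cells of OT-I mice, whose transgenic T cell receptor recognises the SIINFEKL peptide of ovalbumin. The labels give the strain as OT-1 Tg C57BL/6J, and the study's methods describe OT-I donors deficient in Rag1 or Rag2, so that the donor lymphocytes carry the 1 receptor. Both groups compared here had been transferred into C57BL6/J recipients with their own intact lymphocytes, and donor cells were sorted from spleen and lymph nodes on CD8, the congenic marker CD45.1 and the Vα2 and Vβ5 chains of the transgenic receptor, at day 4 by the labels and earlier in parts of the study's text. Recipients of the Ag group (5 libraries) received the peptide with a rat IgG control, and those of the Ag+Costim group (5 libraries) received it with agonist antibodies against OX40 and 4-1BB (CD137), both costimulatory receptors of the TNF receptor family. Naive OT-I cells, the third group of the series, were not analysed here, so no value below says how far a level lies from the resting state. The labels do not state that each library is a separate mouse, and p-values then measure only the spread between these libraries.

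After priming, a T cell displays several of these receptors within days as part of normal activation, and cells that meet antigen for weeks keep them together in the state called exhaustion. PD-1 (Pdcd1) and BTLA recruit tyrosine phosphatases to the activated receptor complex. CTLA-4 takes the ligands CD80 and CD86 away from the activating receptor CD28, and TIGIT competes with CD226 for CD155 (Pvr). LAG-3 binds MHC class II, TIM-3 (Havcr2) has galectin-9 and other ligands, and CD160 and BTLA both bind HVEM (Tnfrsf14). TOX is a nuclear DNA-binding protein needed for the exhausted state, and CD39 (Entpd1) is a surface enzyme that degrades extracellular ATP.

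The sequences that separate the splice forms discussed below are given first. They were read from the GENCODE M21 transcripts (mm10), 5′ to 3′ on the strand of the gene, and all lie in coding sequence. In Btla (plus strand), exon 4 of 6 begins either at chr16:45244153, in the longer form, or 3 bases later at chr16:45244156, in the shorter form, and the capitals mark these 3 bases.
Btla, exon 3 to the longer exon 4: aacacccactaataaCAGtatctgacatcc
Btla, exon 3 to the shorter exon 4: aacacccactaataatatctgacatcc
Exon 2 of Btla (chr16:45239044-45239364, 321 bases or 107 codons) carries the immunoglobulin-like domain that faces the ligand. The capitals in the first line below mark its first bases and those in the second its last bases, and the last line is the junction that arises when exon 2 is left out, joined from exons 1 and 3 since no annotated transcript joins them.
Btla, exon 1 to exon 2: ctactaagaggaatgATGAAGAGTGTCCAG
Btla, exon 2 to exon 3: CCATCCATGTGACAGaaaggactcaaaact
Btla, exon 1 to exon 3: ctactaagaggaatgaaaggactcaaaact
Exon 4 of 5 in Cd160 (minus strand, chr3:96802277-96802408, 132 bases or 44 codons) is present in the main transcript and skipped in another protein-coding one, and the capitals mark its first bases.
Cd160, exon 3 to exon 4: ccgttctagtcacagGGAACCACACAGAGA
Cd160, exon 3 to exon 5: ccgttctagtcacagctctatataccttg
Exon 3 of 4 in Ctla4 (plus strand, chr1:60913219-60913328, 110 bases) encodes the membrane-spanning segment, and the annotated transcript without it encodes the form known as soluble CTLA-4. The capitals mark the first bases of exon 3.
Ctla4, exon 2 to exon 3: agatttatgtcattgATCCAGAACCATGCC
Ctla4, exon 2 to exon 4: agatttatgtcattgctaaagaaaagaagt

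Library totals lay between 59598556 and 449401065 estimated counts in Ag and between 332290834 and 639070261 in Ag+Costim, and Ag replicate 3 was the shallowest. Genes with a count numbered 48058, 21779, 51778, 40441 and 20714 in Ag replicates 1 to 5 and between 28727 and 30340 in Ag+Costim. The CD8 T cell markers (Cd3d, Cd3e, Cd3g, Cd8a and Cd8b1) were all present, summing to between 2521 and 4965 CPM (counts scaled to a common library size with TMM factors) in Ag and between 3243 and 4060 CPM in Ag+Costim. Ag replicates 1 and 4 stood apart. The summed level of 20 cell cycle genes was 1252 and 1326 CPM in these libraries, against 6413 to 11377 CPM in Ag replicates 2, 3 and 5 and 10176 to 12922 CPM in Ag+Costim. All 8 B cell markers were detected in every Ag+Costim library, where they summed to between 31.3 and 52.5 CPM. In Ag their sum was 141, 34.2, 370, 198 and 40.7 CPM in replicates 1 to 5, with Pax5 at 0 in replicates 2 and 5 and Ebf1 at 0 in replicate 5. The 7 erythroid and platelet markers summed to between 8.29 CPM (Ag replicate 5) and 679 CPM (Ag replicate 3) in Ag and between 2.44 and 25.1 CPM in Ag+Costim. Myeloid and dendritic cell markers summed to 49.1, 72.6, 122, 59.0 and 85.1 CPM in Ag replicates 1 to 5 and between 79.9 and 163 CPM in Ag+Costim. Markers of CD4 and regulatory T cells summed to 18.0, 3.74, 8.79, 26.4 and 5.26 CPM in Ag and between 3.16 and 8.20 CPM in Ag+Costim. Whether such cells remained after the sort, and their part in the level of the 9 genes, was not tested. For the 9 genes, fold changes are therefore given with all libraries and without Ag replicates 1 and 4, a setting chosen after seeing the data. This setting keeps Ag replicate 3, which had the most genes with a count and the highest B cell and erythroid marker sums. In bulk RNA, fewer cells that express a gene and less RNA per cell cannot be told apart.

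None of the 9 genes passed the threshold between Ag+Costim and Ag (edgeR quasi-likelihood test, Benjamini-Hochberg (BH) adjusted p under 0.05 over all genes tested), and none had an unadjusted p under 0.05. Over all genes, the same test called 0.0%, and 18.6% had an unadjusted p under 0.05. DESeq2 called 0 of the 9, where it called 22.3% of 36117 genes. Those genes include many below the count filter used for edgeR, which 24262 genes passed. Of the 8046 called, 7116 were lower in Ag+Costim, so this share is not a like background for the 9 genes. With limma voom and weights for library quality, 6 of the 9 passed, against 52.2% of all genes. In that fit the weights of Ag replicates 1 and 4 were 1.42 and 2.00, and those of replicates 2, 3 and 5 were 0.0986, 0.508 and 0.0656, so that the Ag side rested mostly on the libraries that stood apart.

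Without any model of the spread, 0 of the 9 genes had groups that did not overlap. Of all genes tested, 4.48% had every Ag+Costim library above every Ag library, and 1.13% had every one below. The fitted log2 fold changes were positive for 4 of the 9 and negative for 5, with a median of −0.09. The median over all genes tested was −0.32, and that over the 8626 genes with a mean of at least 10 CPM was 0.24.

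**Figure D1:**
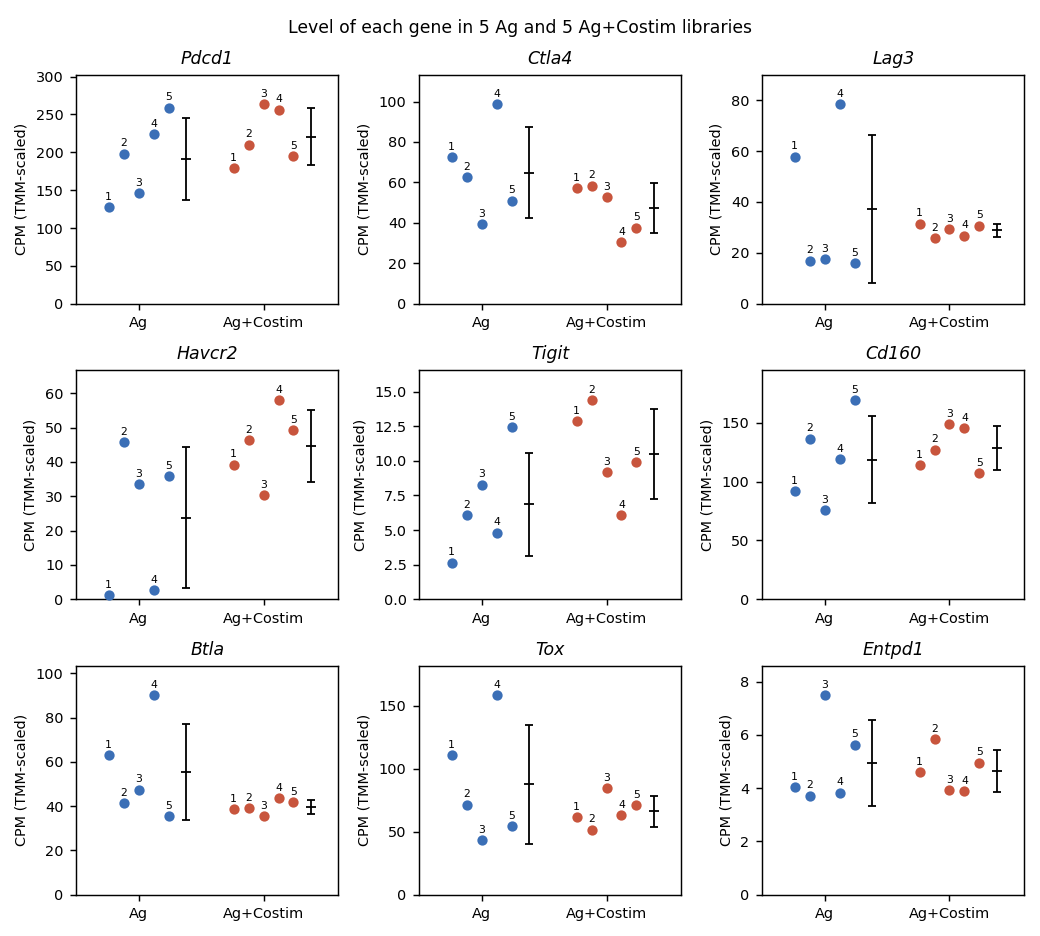
Level of each gene in CPM (TMM-scaled, linear axis from 0) in the 5 Ag libraries (blue) and 5 Ag+Costim libraries (red), numbered by replicate, with the mean and SD in black. Ag replicates 1 and 4 hold the highest values of Lag3, Btla, Tox and Ctla4 and the lowest of Havcr2 and Tigit, and the groups overlap for every gene.

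Pdcd1 (ENSMUSG00000026285.7, chr1:94038305-94052553, minus strand), encoding PD-1, had the highest mean of the receptors. It measured 127, 198, 147, 224 and 259 CPM in Ag replicates 1 to 5 and 180, 210, 263, 256 and 195 CPM in Ag+Costim replicates 1 to 5. Every Ag+Costim value lay inside or just above the Ag range, and the means were 191 ± 54.4 and 221 ± 37.3 CPM (SD, n = 5 each). The log2 fold change was 0.21 (SE 0.21, BH-adjusted p = 0.542, edgeR), and its sign turned when total counts or upper quartile factors replaced TMM. Without Ag replicates 1 and 4 it was 0.14 (SE 0.21).

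Ctla4 (ENSMUSG00000026011.13, chr1:60887000-60915832, plus strand) encodes CTLA-4, the competitor of CD28 for its ligands. Its levels were 72.7, 62.6, 39.4, 98.6 and 51.0 CPM in Ag against 57.2, 58.4, 52.6, 30.6 and 37.6 CPM in Ag+Costim. Ag replicates 1 and 4 were the highest of all 10 libraries, Ag+Costim replicates 4 and 5 were the lowest, and the rest were mixed. The log2 fold change was −0.46 (SE 0.27, BH-adjusted p = 0.320, edgeR). It was −0.10 (SE 0.25) without Ag replicates 1 and 4.

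Lag3 (ENSMUSG00000030124.2, chr6:124904361-124911705, minus strand), whose product resembles CD4 and binds MHC class II, had the widest gap among Ag libraries relative to Ag+Costim. It measured 57.9, 16.9, 17.5, 78.4 and 15.9 CPM in Ag against 31.5, 25.9, 29.5, 26.8 and 30.8 CPM in Ag+Costim. The Ag+Costim libraries fell in the space between the Ag libraries, below replicates 1 and 4 and above replicates 2, 3 and 5. The SD was 29.0 CPM in Ag against 2.45 CPM in Ag+Costim, 11.9 times apart. With all libraries the log2 fold change was −0.37 (SE 0.45, BH-adjusted p = 0.604, edgeR). Without Ag replicates 1 and 4 it was 0.80 (SE 0.11, BH-adjusted p = 0.0532, edgeR), in a fit that called 0 of 25237 genes. The groups no longer overlapped, as for 9.58% of all genes in either direction in those 8 libraries. The change of sign and the loss of overlap follow in part from leaving out the libraries with the highest Lag3. Leaving out Ag replicate 4 alone gave 0.10, so the sign of the Lag3 difference depended on that library. Over all settings tried, its adjusted p ranged from 0.00529 to 0.999.

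Havcr2 (ENSMUSG00000020399.14, chr11:46454935-46481255, plus strand) encodes TIM-3. It was close to absent from the libraries in which Lag3 was highest. Levels were 1.09, 45.7, 33.6, 2.75 and 35.8 CPM in Ag against 39.2, 46.4, 30.2, 58.0 and 49.4 CPM in Ag+Costim. Ag replicates 2, 3 and 5 lay within the Ag+Costim range, and the highest Ag library was 41.8 times the lowest. The log2 fold change of 0.91 (SE 0.79, BH-adjusted p = 0.478, edgeR) became 0.23 (SE 0.21, BH-adjusted p = 0.573) without Ag replicates 1 and 4. In the weighted voom fit it was 4.25 (SE 0.52, BH-adjusted p = 4.37e-05), the largest value for any of the 9 genes in any fit, and over all settings its adjusted p ranged from 4.37e-05 to 0.653.

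**Figure D2:**
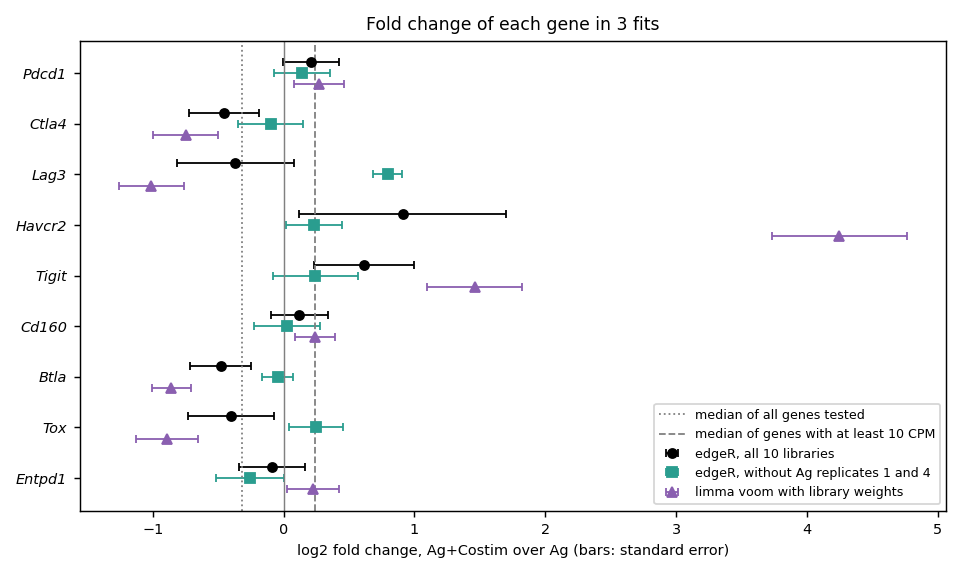
Log2 fold change of each gene, Ag+Costim over Ag, with its standard error, in edgeR with all 10 libraries (black), in edgeR without Ag replicates 1 and 4 (green) and in limma voom with library weights (purple); the dotted and dashed lines are the medians of all genes tested (−0.32) and of genes with at least 10 CPM (0.24). Lag3 lies at −0.37, 0.80 and −1.01 in these fits and Havcr2 at 0.91, 0.23 and 4.25.

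Tigit (ENSMUSG00000071552.5, chr16:43648867-43664146, minus strand) was low throughout. It measured 2.65, 6.07, 8.28, 4.81 and 12.4 CPM in Ag against 12.9, 14.4, 9.21, 6.10 and 9.91 CPM in Ag+Costim. As for Havcr2, the lowest values were those of Ag replicates 1 and 4. The log2 fold change was 0.62 (SE 0.38, BH-adjusted p = 0.340, edgeR), and 0.24 (SE 0.32) without these libraries. The summed level of the 4 natural killer cell markers, cells that also express Tigit and Cd160, ranged from 15.3 to 59.4 CPM in Ag and from 10.4 to 24.7 CPM in Ag+Costim, and its part in either gene was not tested. Klre1 and Tyrobp made up most of this sum, with means of 10.5 and 11.5 CPM in Ag against 9.33 and 7.18 CPM in Ag+Costim. Ncr1 and Klrb1c were at 3.20 and 4.34 CPM in Ag against 0.338 and 0.879 CPM in Ag+Costim. The sort selected on CD8, CD45.1 and the receptor chains, and whether natural killer cells remained was not tested.

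Cd160 (ENSMUSG00000038304.14, chr3:96798763-96829351, minus strand) and Btla (ENSMUSG00000052013.15, chr16:45224315-45257670, plus strand) share the ligand HVEM. Cd160 measured 91.8, 137, 75.6, 119 and 170 CPM in Ag against 114, 127, 149, 146 and 107 CPM in Ag+Costim, with the highest and the lowest library both in Ag. Its log2 fold change was 0.12 (SE 0.22, BH-adjusted p = 0.738, edgeR), negative under total count or upper quartile scaling, and 0.02 (SE 0.25) without Ag replicates 1 and 4. Cd160 overlaps the 5′ end of Pdzk1 on the other strand, and reads of the shared stretch could have been counted for either gene.

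Btla measured 62.9, 41.5, 47.5, 90.0 and 35.5 CPM in Ag against 38.8, 39.3, 35.3, 43.5 and 41.9 CPM in Ag+Costim. The 3 highest libraries were Ag replicates 4, 1 and 3, which were also the 3 with the highest B cell marker sums (198, 141 and 370 CPM). B cells express Btla, and the sort selected on CD8, CD45.1 and the receptor chains. Whether B cells remained, and their part in the level of Btla, was not tested. Of the 9 genes Btla had the smallest unadjusted p (0.0650), with a log2 fold change of −0.48 (SE 0.23, BH-adjusted p = 0.281, edgeR). Without Ag replicates 1 and 4 it was −0.05 (SE 0.12).

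Tox (ENSMUSG00000041272.11, chr4:6686353-6991557, minus strand) followed the receptors that were high in Ag replicates 1 and 4. It measured 111, 71.6, 43.1, 158 and 54.6 CPM in Ag against 61.5, 51.7, 84.5, 63.0 and 71.2 CPM in Ag+Costim. The remaining Ag libraries lay within or below the Ag+Costim range. The log2 fold change was −0.40 (SE 0.33, BH-adjusted p = 0.447, edgeR) and turned to 0.24 (SE 0.21, BH-adjusted p = 0.540) without these 2 libraries, and its adjusted p ranged from 0.00888 to 0.898 over all settings. The antisense gene Gm11802 lies within Tox (chr4:6688169-6704160, plus strand), and without strand information its reads cannot be told from those of Tox there.

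Entpd1 (ENSMUSG00000048120.16, chr19:40612366-40741602, plus strand) had the lowest level. It measured 4.06, 3.72, 7.48, 3.83 and 5.63 CPM in Ag against 4.60, 5.83, 3.94, 3.90 and 4.96 CPM in Ag+Costim. Its highest value was in Ag replicate 3, the shallowest library, which also held the highest sums of B cell, natural killer and erythroid markers. The myeloid marker sum of that library was the highest in Ag, at 122 CPM. The log2 fold change was −0.09 (SE 0.25, BH-adjusted p = 0.833, edgeR), 0.11 without Ag replicate 3 and −0.26 (SE 0.26) without Ag replicates 1 and 4.

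**Figure D3:**
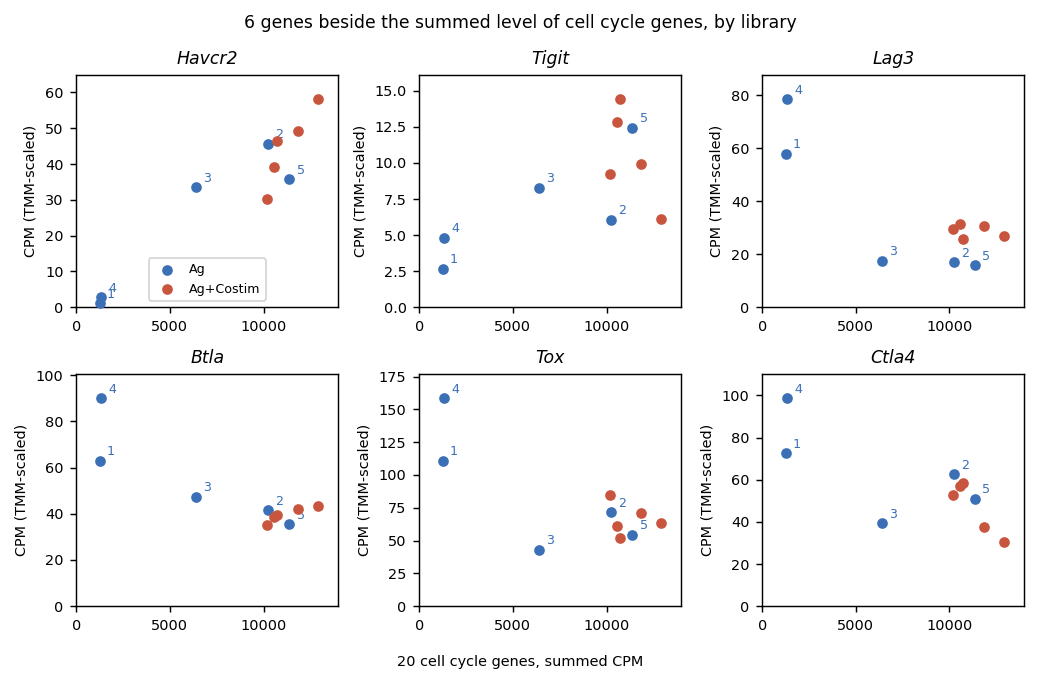
CPM of Havcr2, Tigit, Lag3, Btla, Tox and Ctla4 (vertical axes from 0) against the summed CPM of 20 cell cycle genes (horizontal axis) in each Ag library (blue, numbered by replicate) and each Ag+Costim library (red). Ag replicates 1 and 4, at 1252 and 1326 summed CPM, lie apart from the other 8 libraries, low for Havcr2 and high for Lag3, Btla, Tox and Ctla4.

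The spread among Ag libraries was not particular to these genes. Over the 8626 genes with a mean of at least 10 CPM, the median SD of log2(CPM + 0.5) was 0.463 in Ag against 0.121 in Ag+Costim, and the median ratio of the SDs was 3.92. Lag3 (ratio 8.99), Havcr2 (6.42) and Btla (4.64) exceeded that median, and Tox (2.89), Cd160 (2.20), Entpd1 (1.81), Pdcd1 (1.75), Tigit (1.67) and Ctla4 (1.22) did not. Havcr2 had an SD of 2.27 in Ag, which 0.429% of these genes exceeded. For Lag3 the SD was 1.09, which 7.28% exceeded.

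Per length, the order of the genes was similar in the groups. In TPM (transcript counts per annotated length, scaled to a common total), Pdcd1 and Cd160 led with 166 ± 40.2 and 163 ± 29.5 TPM in Ag against 175 ± 27.7 and 164 ± 22.4 TPM in Ag+Costim (SD, n = 5 each). Their ranges overlapped in both groups. TPM was scaled without TMM factors, so its differences between the groups are not like those in CPM and only the order is read here. Ctla4 followed at 60.6 ± 31.3 TPM in Ag against 37.5 ± 10.1 TPM in Ag+Costim, with every library below every library of Cd160. Tox was next in both groups, at 43.8 ± 31.3 and 26.3 ± 4.81 TPM. Lag3 (36.5 ± 33.2 and 22.2 ± 1.99 TPM), Btla (34.2 ± 18.9 and 20.04 ± 1.66 TPM), Havcr2 (13.1 ± 11.1 and 25.1 ± 5.75 TPM) and Tigit (11.9 ± 4.55 and 17.5 ± 5.56 TPM) overlapped with their neighbours in the order, as did Tox with Ctla4. Havcr2 ranked after Lag3 and Btla in Ag and before them in Ag+Costim. Entpd1 was last, at 2.59 ± 1.44 and 1.84 ± 0.37 TPM, with every library below every library of Tigit.

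The genes whose pattern over the 10 libraries was most like each member are a description of libraries that share their groups and the distance of Ag replicates 1 and 4, and carry no test. Correlations are of log2(CPM + 0.5) over 8625 other genes with a mean of at least 10 CPM. For Havcr2 they were Osbpl3 (Pearson r = 0.998, Spearman rho = 0.95), Scpep1 (0.99 and 0.81) and Mbd4 (0.99 and 0.88). Without the 2 libraries of Havcr2 farthest from its median, Ag replicates 1 and 4, r was 0.90, 0.77 and 0.83. Osbpl3 lay at 10.3 and 18.3 CPM in these libraries and between 116 and 185 CPM in the others.

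For Lag3 the closest were Adamts10 (r = 0.99, rho = 0.93), Fam120b (0.98 and 0.88) and Nedd9 (0.98 and 0.89), and r stayed at 0.97, 0.93 and 0.95 without Ag replicates 1 and 4. For Tox they were Pnpla7 (0.97 and 0.92), the diacylglycerol kinase gene Dgka (0.96 and 0.90) and Faah (0.96 and 0.94), with r of 0.89, 0.87 and 0.87 without these libraries. For Btla the closest gene was Nt5e (0.95 and 0.61), which encodes CD73, the enzyme that follows CD39 in the conversion of ATP to adenosine. It was followed by Ep300 (0.94 and 0.79) and L3mbtl3 (0.94 and 0.55), and r was 0.54, 0.58 and 0.52 without Ag replicates 1 and 4.

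Ctla4 was closest to Fam98c (r = 0.97, rho = 0.96), 5031425E22Rik (0.96 and 0.93) and 2310001H17Rik (0.96 and 0.87). Without the 2 libraries of Ctla4 farthest from its median, Ag replicate 4 and Ag+Costim replicate 4, r was 0.93, 0.89 and 0.88. Pdcd1 was closest to B3gnt2 (0.94 and 0.92), Cog4 (0.92 and 0.79) and Xlr4c (0.92 and 0.90), with r of 0.79, 0.78 and 0.90 without Ag replicates 1 and 3. Cd160 was closest to Xlr4c (0.98 and 0.98), Xlr4a (0.96 and 0.94) and Xlr4b (0.96 and 0.92), 3 similar genes of 1 family between which reads may be shared, and r was 0.96, 0.93 and 0.88 without Ag replicates 3 and 5. Xlr4c was thus among the closest genes of both Pdcd1 and Cd160, the most abundant pair.

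Most members gave nearly all of their counts to 1 protein-coding transcript. Pdcd1 and Tigit had a single transcript in the table. The main transcript held between 99.6% and 100% of Ctla4 and of Lag3 in each library, and between 99.1% and 100% of Havcr2. The Ctla4 transcript without the membrane-spanning exon, whose junction is printed above, had 0 estimated counts in all 10 libraries, against 204213 for the full-length transcript. These estimates come from coverage rather than from counted reads, so no counting limit on a share of 0 is given.

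The main transcript of Cd160 held 86.4 ± 3.44% in Ag against 87.7 ± 1.35% in Ag+Costim (SD, n = 5 each), and the transcript that skips the 132-base exon 4 held most of the rest. Its share was 10.1, 9.77, 14.4, 14.9 and 9.55% in Ag against 13.0, 12.8, 12.7, 9.87 and 12.04% in Ag+Costim. The Ag+Costim libraries lay within the Ag range. The Btla transcript with the shorter exon 4 held 91.8 ± 2.65% and 93.1 ± 1.37%, and the main transcript of Entpd1 held 96.8 ± 3.44% and 98.9 ± 0.889%.

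The protein-coding transcript of Tox held 94.2 ± 2.51% in Ag against 96.9 ± 0.659% in Ag+Costim. The rest went largely to a pair of transcripts that the annotation types as retained intron. The first extends exon 4 by 1056 bases into intron 4 of 8 (chr4:6722369-6741285), and the other extends exon 3 by 2211 bases into intron 3 (chr4:6741568-6822904). Together they held 7.59, 5.10, 5.88, 8.29 and 1.94% of the Tox counts in Ag and 3.96, 2.93, 2.92, 2.23 and 3.52% in Ag+Costim. Ag replicates 1 to 4 were above every Ag+Costim library, and Ag replicate 5 was below all of them.

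Usage of transcripts could be tested for the 6 members with at least 2 transcripts past the filter (Cd160, Entpd1, Tox, Btla, Lag3 and Ctla4). None was called (edgeR diffSpliceDGE, gene-level BH-adjusted p under 0.05 with a share change over 0.1), and none had an unadjusted p under 0.05 in edgeR. Of all 10441 genes tested, edgeR called 0.297%. Its smallest BH-adjusted p among the members was 0.929, for Cd160 (unadjusted p = 0.0956, edgeR). The limma diffSplice fit called 0 members as well, and there Cd160 had an unadjusted p of 0.0137 (BH-adjusted p = 0.200). For Tox the protein-coding transcript was higher by 2.66 percentage points in Ag+Costim (BH-adjusted p = 1.0, edgeR).

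The table of splicing events holds 1 PSI value (percent spliced in, as a fraction) per group, made by the authors from all libraries of a group, so the differences below have no replicate check. It listed 55 events for the 9 genes, of which 40 were core exons. A difference over 0.05 was seen for 6 events (10.9%), 4 in Btla and 2 in Entpd1, against 11.9% of all 138940 events. By type, such differences made up 43.0% of all tandem 3′ end events and 5.50% of all core exons, and 4 of the 6 were tandem ends.

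The only core exon past 0.05 was exon 2 of Btla, the 321-base exon of the immunoglobulin-like domain whose junctions are printed above. Its PSI was 0.802 in Ag against 0.878 in Ag+Costim, which was also the lowest core exon value in each group. The exon is a multiple of 3, so its absence would keep the reading frame. No annotated transcript joins exon 1 to exon 3, so the exon could not be followed library by library.

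The 3-base acceptor of Btla exon 4 had a PSI of 0.556 in Ag against 0.485 in Ag+Costim. By transcript counts, the longer form held 5.58, 7.67, 11.7, 5.40 and 9.77% of both forms together in Ag and 6.19, 8.42, 5.43, 6.20 and 8.26% in Ag+Costim. The groups overlapped, and the measures set the level of the form far apart. The transcripts with the longer and the shorter exon 4 also end at different positions in the annotation, so a transcript count does not reflect the acceptor alone.

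The remaining Btla events were a pair of 3′ ends. The end at chr16:45252892 had a PSI of 0.250 in Ag against 0.480 in Ag+Costim, and the end 3 bases beyond it 0.750 and 0.520, so these ends lie within 3 bases of each other. In Entpd1 the end at chr19:40739794 had 0.699 in Ag against 0.828 in Ag+Costim, and that at chr19:40741602 had 0.301 and 0.172. By transcript counts the nearer end, annotated in 1 transcript, had 0 counts in all libraries, and Entpd1 was at about 5 CPM.

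Exon 3 of Ctla4 had a PSI of 0.999 in both groups, and exon 2 of Ctla4 (chr1:60912423-60912770, 348 bases), which encodes the ligand-binding domain, had 0.988 in Ag against 0.999 in Ag+Costim. Exon 3 of Pdcd1, which encodes the membrane-spanning segment, was at 0.9996 and 0.9998. Exon 4 of Cd160 was at 0.928 in Ag against 0.903 in Ag+Costim, and by transcript counts was included in 88.3 ± 2.66% and 87.9 ± 1.30% (SD, n = 5 each). Among the core exons of Havcr2, the 84-base exon 3 (chr11:46459050-46459133) differed most, at 0.942 and 0.980. Of the 40 core exons, 35 had the higher PSI in Ag+Costim, with a median difference of 0.0012. So did 79.5% of core exons of all genes and 86.1% of those in genes with at least 10 CPM.

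**Figure D4:**
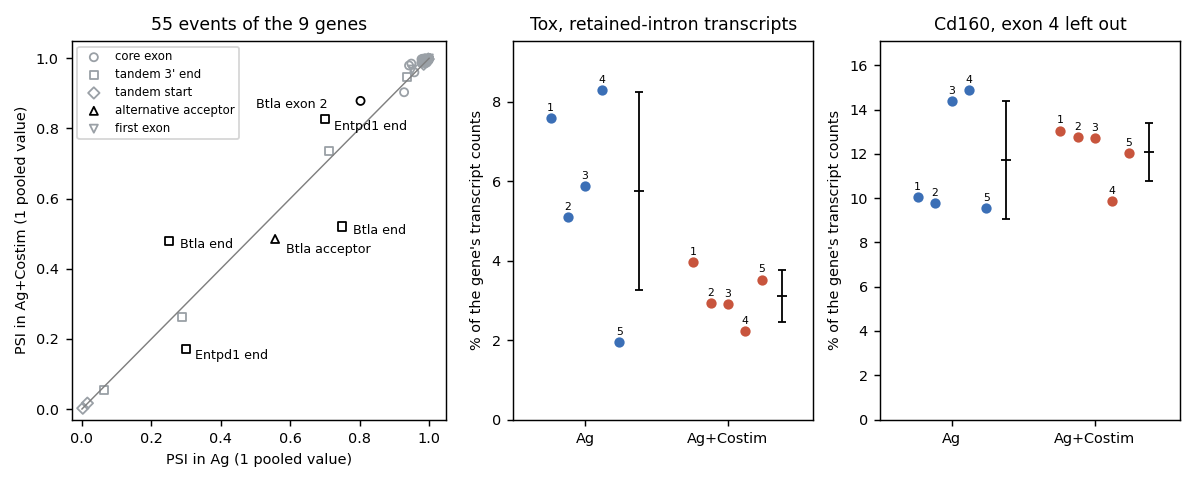
Left, PSI in Ag (horizontal) and Ag+Costim (vertical) of the 55 events of the 9 genes, 1 pooled value per group, with the 6 events that differ by over 0.05 in black and equality as a line. Middle and right, percent of transcript counts on the retained-intron transcripts of Tox and on the Cd160 transcript without exon 4, in each library (numbered by replicate, mean and SD in black): Tox ranges from 1.94 to 8.29% in Ag against 2.23 to 3.96% in Ag+Costim, and Cd160 from 9.55 to 14.9% and 9.87 to 13.0%.

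The partners of these receptors were described from lists of other genes of the same pathways, and edgeR called 0 of their 103 genes. DESeq2 called 10 and weighted voom 72 of them, where these fits called 22.3% and 52.2% of the genes each tested. The DESeq2 share includes many genes below the count filter used for edgeR, so it is not a like background here either. The counts per list below stand beside 18.6% of all genes with an unadjusted p under 0.05, of which 1915 of 4501 were higher in Ag+Costim. Among 16 signalling partners, 3 had an unadjusted p under 0.05, which is near that share. All 3 were higher in Ag+Costim without overlap of the groups, as were 4.48% of all genes, and the median log2 fold change was 0.25. They were Bag6, Ubash3a and Inpp5d. Bag6, which encodes the protein bound by the tail of TIM-3, measured 51.9, 49.0, 56.4, 61.0 and 59.5 CPM in Ag against 85.8, 103, 106, 111 and 105 CPM in Ag+Costim. Its log2 fold change was 0.88 (SE 0.12, BH-adjusted p = 0.117, edgeR; 1.99e-07 in DESeq2), and it did not share the low values of Havcr2 in Ag replicates 1 and 4. Ubash3a, a suppressor of T cell receptor signalling, was at 145 ± 23.4 and 190 ± 6.48 CPM, and Inpp5d, which encodes the lipid phosphatase SHIP1, at 112 ± 8.99 and 134 ± 5.81 CPM (SD, n = 5 each).

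Of 13 ligands and ligand-side partners, 0 had an unadjusted p under 0.05, and the median log2 fold change was −0.28. The smallest p-values were those of Nectin3, Tnfrsf14 and Hmgb1. Tnfrsf14, the HVEM gene, was at 4.70, 1.09, 2.32, 4.398 and 1.20 CPM in Ag and between 1.06 and 1.99 CPM in Ag+Costim, and was highest in Ag replicates 1 and 4, where Btla was highest too. Hmgb1, which encodes a chromatin protein that TIM-3 also binds, was lowest in those libraries, at 220 and 269 CPM, against 481 to 802 CPM in the other Ag libraries and 713 to 895 CPM in Ag+Costim. Hmgb1 had a log2 fold change of 0.61, and 0.18 without these libraries, and that of Tnfrsf14 was −0.83 and 0.03. Nectin3 was at 8.31 CPM in Ag replicate 3 and at most 0.815 CPM in every other library (adjusted p = 0.0497 in DESeq2).

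Among 8 activating counterparts, 0 had an unadjusted p under 0.05, and the median was −0.10. Cd27 was at 369 ± 101 CPM in Ag against 286 ± 31.8 CPM in Ag+Costim. Tnfrsf9 and Tnfrsf4, which encode the receptors 4-1BB and OX40 that the agonist antibodies bind, were at 63.4 ± 33.9 and 4.31 ± 3.25 CPM in Ag against 87.3 ± 7.50 and 6.76 ± 2.46 CPM in Ag+Costim.

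Among 14 other inhibitory receptors, 4 had an unadjusted p under 0.05, beside 18.6% of all genes, all lower in Ag+Costim, and the median was −0.11. Cd200, the ligand of a myeloid inhibitory receptor and itself carried by T cells, measured 121, 22.9, 23.6, 178 and 17.8 CPM in Ag and between 16.0 and 30.01 CPM in Ag+Costim, a pattern like that of Lag3 in Ag. Its log2 fold change was −1.64 (SE 0.64, BH-adjusted p = 0.257, edgeR; 0.0328 in DESeq2) and 0.13 without Ag replicates 1 and 4. Vsir, which encodes VISTA, was at 214 ± 55.6 and 152 ± 24.5 CPM, with a log2 fold change of −0.49 (BH-adjusted p = 0.263, edgeR; 0.0345 in DESeq2) and −0.22 without these libraries. Siglecg, a receptor of B cells, was at 7.72, 1.08, 27.2, 11.8 and 0.458 CPM in Ag and between 0.381 and 1.93 CPM in Ag+Costim, in the same order over the Ag libraries 3, 4 and 1 as the B cell marker sum (BH-adjusted p = 0.214, edgeR; 0.00388 in DESeq2).

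Of 18 members of the Tox family and transcription factors linked to exhaustion, 4 had an unadjusted p under 0.05 with a higher level in Ag+Costim and 1 with a lower level, beside 18.6% of all genes in either direction, and the median was 0.22. Irf4, a factor induced by receptor signal strength, was at 7.95, 20.6, 20.2, 18.4 and 18.0 CPM in Ag against 29.8, 27.4, 25.5, 38.5 and 33.8 CPM in Ag+Costim, without overlap (log2 fold change 0.86, SE 0.25, BH-adjusted p = 0.201, edgeR; 0.0278 in DESeq2). Without Ag replicates 1 and 4 the log2 fold change of Irf4 was 0.67. Tox2, a close relative of Tox, was at 2.44 ± 0.937 and 4.16 ± 0.921 CPM (log2 fold change 0.77, SE 0.31, BH-adjusted p = 0.257). Tox had the opposite sign, −0.40, with all libraries, but without Ag replicates 1 and 4 both were positive, at 0.24 for Tox and 0.94 for Tox2, and the difference between the 2 genes was not tested. Ikzf2, encoding Helios, was at 42.5, 8.95, 18.7, 32.8 and 5.82 CPM in Ag and between 5.02 and 8.22 CPM in Ag+Costim. Its log2 fold change was −1.72 (BH-adjusted p = 0.201, edgeR; 0.00708 in DESeq2), and −0.74 without Ag replicates 1 and 4.

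For ATP and adenosine handling, 14 genes were followed beside Entpd1. Of these, 2 had an unadjusted p under 0.05 with a higher level in Ag+Costim and 1 with a lower level, near the 18.6% of all genes, and the median was −0.02. Adora2a, which encodes an inhibitory adenosine receptor of T cells, measured 23.6, 27.5, 19.4, 38.2 and 20.2 CPM in Ag against 53.8, 55.02, 66.4, 47.0 and 60.1 CPM in Ag+Costim. The groups did not overlap, and the log2 fold change was 1.13 (SE 0.20, BH-adjusted p = 0.134, edgeR; 3.67e-04 in DESeq2). Without Ag replicates 1 and 4 the log2 fold change of Adora2a was 1.35 (BH-adjusted p = 0.0532, edgeR). Nt5e was at 67.0, 7.82, 15.3, 125 and 6.48 CPM in Ag and between 8.13 and 11.1 CPM in Ag+Costim. Its log2 fold change was −2.25 (SE 0.76, BH-adjusted p = 0.236, edgeR; 0.0137 in DESeq2) and lay at −0.06 without Ag replicates 1 and 4. Entpd5, an enzyme of the endoplasmic reticulum, was at 80.0 ± 32.6 and 124 ± 17.6 CPM.

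Of the 20 cell cycle genes, 1 had an unadjusted p under 0.05, and all 20 had a positive log2 fold change, with a median of 0.92. In 5 of them (Mki67, Top2a, Tpx2, Kif11 and Mcm2) every Ag+Costim library was above every Ag library, beside 4.48% of all genes. The lowest p was that of Mki67, at 93.4, 402, 241, 98.3 and 222 CPM in Ag and between 416 and 469 CPM in Ag+Costim (BH-adjusted p = 0.233, edgeR; 0.0311 in DESeq2). Kif11 and Mcm2 followed, at 190 ± 129 and 336 ± 237 CPM in Ag against 403 ± 44.5 and 710 ± 105 CPM in Ag+Costim. Without Ag replicates 1 and 4, the log2 fold changes of Mki67, Kif11 and Mcm2 went from 1.102, 1.08 and 1.08 to 0.67, 0.52 and 0.51. In Ag replicates 1 and 4 these 20 genes were low together with Havcr2 and Tigit, while Lag3, Btla, Tox and Ctla4 were at their highest. Whether cell division has a part in the level of these genes was not tested.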

How the data were processed

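The libraries were made from poly(A) RNA of sorted cells (SMART-Seq v4 with Nextera XT, a kit that does not mark strand). The authors aligned reads to mm10 with HISAT2 2.1.0, sorted them with SAMtools 1.9 and counted with StringTie 2.1.0 per the labels. The deposited tables hold, per gene and per transcript, estimated counts that StringTie derives from coverage, rounded to whole numbers and not normalized. The authors ran Whippet for the deposited PSI, a fraction with 1 value per group. That table also holds the authors' own comparison columns (a PSI difference and a probability), which were not used. Entries without a GENCODE M21 gene were left out (at most 0.308% of a library).

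The 9 genes, the lists of other genes and the tests were chosen with earlier results of these data known. Counts of 10 of the 15 libraries, 59598556 to 639070261 per library, were used: 5 Ag and 5 Ag+Costim, grouped by title. No sample column was left unused. Gene counts were tested with edgeR 4.0.16 in R 4.3.3 (filterByExpr, TMM, robust quasi-likelihood, BH over all genes tested, threshold 0.05), with DESeq2 1.42.0 and limma 3.58.1 beside it. DESeq2 adjusted p-values are over the 36117 genes that it gave one. Transcript usage was tested with diffSpliceDGE. The edgeR fits of gene counts and of transcript usage were tested on simulated data, and the DESeq2 and limma fits were not. The simulated counts had the same dispersion in both groups, unlike these data. Alternatives were other scalings, no filter, the replicate number as a block and leaving out libraries. Named from each list were the 3 genes with the lowest unadjusted p, for likeness the 3 highest r, transcripts with at least 10% of their gene, and PSI events that differ by over 0.05. The Ctla4 transcript without exon 3, the exons of Ctla4, Pdcd1, Cd160 and Havcr2, the retained introns of Tox, and Top2a and Tpx2 were named after their values were seen.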

Additional observations from a re-analysis of the deposited data

Results flagged for a closer look

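Of 66 groups of 5 libraries examined, 3 held a value far from the other 4, and chance alone sets apart about 1 group in 20. Irf4 was at 7.95 CPM in Ag replicate 1 against 18.0 to 20.6 CPM in the other Ag libraries. Nectin3 was at 8.31 CPM in Ag replicate 3 against 0 to 0.815 CPM in the others. Mki67 was at 416 CPM in Ag+Costim replicate 3 against 455 to 469 CPM. None of the 18 groups of values of the 9 genes held such a library, and the Ag values of Lag3 and Havcr2 lay apart in pairs.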

How the results depend on the processing

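No call of edgeR among the 9 genes changed with the scaling, the filter, the replicate block or any library left out (0 called in each). In limma voom with library weights 6 were called, Havcr2 and Tigit higher and Ctla4, Lag3, Btla and Tox lower in Ag+Costim, at log2 fold changes of 4.25, 1.46, −0.75, −1.01, −0.86 and −0.89. Among the 103 list genes, DESeq2 called 10 and weighted voom 72, beside 22.3% and 52.2% of the genes each tested. The DESeq2 share includes many genes below the count filter used for edgeR and is not a like background. The count of genes without overlap was 0 in each planned setting and 1 (Lag3) without Ag replicates 1 and 4. Transcript usage called 0 members in every setting. PSI events past the threshold were 6, and 4 at a difference of 0.1 or in genes with at least 10 CPM. By transcript counts per library 0 of 5 events passed. Of the 6, only the 3-base Btla acceptor could be measured in that way, and it differed by −0.011 against −0.071 by PSI. The sign of a fold change turned for Pdcd1 with total counts (−0.032) and upper quartile factors (−0.010), and for Cd160 with the same scalings (−0.11 and −0.10). It turned for Entpd1 without a filter (0.36) and in weighted voom (0.22), for Inpp5d with total counts (−0.044), and without Ag replicates 1 and 4 for Lag3 (0.80), Tox (0.24), Tnfrsf14 (0.029) and Cd200 (0.13). The cause of these turns was not tested. Over the fits that left out 1 library, log2 fold changes ranged from 0.10 to 0.36 for Pdcd1, −0.59 to −0.25 for Ctla4, −0.55 to 0.10 for Lag3, 0.60 to 1.31 for Havcr2, 0.41 to 0.97 for Tigit, −0.0040 to 0.30 for Cd160, −0.58 to −0.23 for Btla, −0.57 to −0.07 for Tox and −0.18 to 0.11 for Entpd1. The median of all genes tested moved from −0.32 with TMM to −0.48, −0.65 and −0.58 with DESeq2, total count and upper quartile scaling, and the median of the 9 genes from −0.09 to −0.23, −0.37 and −0.34. The replicate numbers did not pair the libraries: same-numbered libraries deviated together with r between −0.10 and 0.11, and with the replicate block edgeR called 0 of the 9 genes and 30 genes in usage against 31 without it. Estimated counts do not give the number of reads behind a value, and 1 PSI value per group gives no error.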
